A study of Mus musculus with 8 samples.

Results

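The G1 cyclins and their kinases drive a cell from G1 phase, the gap before DNA replication, into S phase. They were taken here as 8 genes: the D-type cyclins Ccnd1, Ccnd2 and Ccnd3, the E-type cyclins Ccne1 and Ccne2, and the kinases Cdk2, Cdk4 and Cdk6. The members were every probe set, a group of probes on the array that reads 1 transcript region, whose single gene symbol in the platform annotation was one of these. All 8 genes were found among the 17098 genes measured, with 20 of the 28898 single-gene probe sets, and the brightest of a gene's probe sets, averaged over the 8 arrays, leads. The series holds 8 arrays of mouse embryonic stem (ES) cells, pluripotent cells derived from the early embryo. The labels describe them as HPRT deficient cells of strain C57BL/6 at passages 19 to 22, kept first on feeder cells and then on gelatin. Of these, 4 were sampled after 8 h with 2.5 µM cisplatin, a platinum drug that crosslinks DNA, and 4 after 8 h with the solvent DMSO. Both groups are HPRT deficient, and both are numbered 3 to 6 in the sample titles, used here, but 1 to 4, in the same order, in the descriptions. The labels do not say whether replicates were separate cultures, and a p-value here therefore reflects no more than the spread among the samples at hand, which may be technical.

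D-type cyclins bind Cdk4 and Cdk6 and E-type cyclins bind Cdk2, and the active kinases phosphorylate the retinoblastoma protein, which releases E2F transcription factors. The E2F factors in turn switch on genes of DNA replication, Ccne1 and Ccne2 among them. Mouse ES cells are known for a short G1 phase, for high cyclin E and Cdk2 activity across the cycle and for little reliance on D-type cyclins. The arrays read messenger RNA from a 3′-primed label, so protein, its phosphorylation and kinase activity were not measured. In a bulk sample, fewer cells of a cycle phase and less RNA per cell cannot be told apart.

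Over all genes, correlations were 0.997 to 0.998 between arrays of a group and 0.992 to 0.995 across groups. The number of 4 arrays per group limits the precision. Background was taken here as control probes with 24 G or C in 25 bases, which averaged 3.10 on the log2 scale. None of 9 measured ES cell markers lay under it. Nanog, Zfp42, Esrrb, Klf4 and Utf1 passed as lower with cisplatin, 55.6% of the 9. Among all genes 7.69% were called lower and 11.6% higher. The summed log2 level of the 9 ran from 97.68 to 98.13 with cisplatin and from 99.60 to 99.86 in the controls, with no overlap. Of 21 measured fibroblast markers, for the feeder cells, 11 lay under that background in both groups, among them Col1a2, Pdgfra, Pdgfrb, Postn, Lum and Dcn. The rest did not, among them Fn1 at 9.89 with cisplatin and 10.20 in the controls, Acta2 at 8.58 and 8.43, and Col5a1 at 5.78 and 5.97. The presence of feeder cells is thus not settled by this list. In that list Thy1 and Mmp2 passed as higher and Fn1 as lower, and Fbln2 also passed as higher although it is one of the 11 under background, at 2.30 and 2.10. These calls are 14.3% of the list as higher and 4.76% as lower. The list's summed log2 level ran from 80.33 to 86.72 with cisplatin and from 80.14 to 84.29 in the controls. Of 21 germ layer and trophoblast markers 2 passed as higher and 1 as lower (9.52% and 4.76%), with sums of 82.76 to 84.01 and 82.64 to 85.19. The part of these markers' cells, or of the lower ES cell markers, in the values below was not tested. The 3′ minus 5′ difference of the Actb control, a sign of RNA integrity, stood at 0.53 ± 0.01 (SD, n = 4) in the cisplatin group and 0.54 ± 0.03 in the control group. Hprt, the gene in which all samples are said to be deficient, was read by 1 probe set at 4.21 to 5.03, and whether that probe set lies in the altered part is not given in the sources used here.

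The promoters of the 3 kinases are shown because Cdk6 fell, while Cdk4 and Cdk2 did not pass the test. Promoter windows from RefSeq (build GRCm38.p6) matched Ccnd3 (at 2 start sites), Ccne1, Cdk2, Cdk4 and Cdk6. The 250 bases before the start are printed 5′ to 3′ on the gene's strand. For Cdk2 and Cdk4 this start is the 5′ end of the annotated gene. The Cdk6 start lies inside the annotated gene, which begins at base 3341004, and the bases before that were not searched. Capitals mark the searched motifs: E2F (TTTCCCGC, TTTCGCGC, TTTGCCGC or TTTGGCGC), the GC box (GGGCGG) and the E-box (CACGTG), each on both strands.
Cdk2, chr10:128705052-128705301, strand -: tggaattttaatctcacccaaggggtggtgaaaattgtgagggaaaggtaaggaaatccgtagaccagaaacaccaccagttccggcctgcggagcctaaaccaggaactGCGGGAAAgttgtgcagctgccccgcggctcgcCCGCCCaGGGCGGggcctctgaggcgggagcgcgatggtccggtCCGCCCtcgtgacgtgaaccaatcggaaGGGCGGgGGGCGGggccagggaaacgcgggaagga
Cdk4, chr10:127063285-127063534, strand +: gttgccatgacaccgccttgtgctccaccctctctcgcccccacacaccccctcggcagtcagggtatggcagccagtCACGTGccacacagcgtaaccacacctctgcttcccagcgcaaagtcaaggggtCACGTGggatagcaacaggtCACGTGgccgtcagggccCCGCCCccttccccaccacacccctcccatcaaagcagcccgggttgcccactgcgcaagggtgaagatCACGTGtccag
Cdk6, chr5:3343643-3343892, strand +: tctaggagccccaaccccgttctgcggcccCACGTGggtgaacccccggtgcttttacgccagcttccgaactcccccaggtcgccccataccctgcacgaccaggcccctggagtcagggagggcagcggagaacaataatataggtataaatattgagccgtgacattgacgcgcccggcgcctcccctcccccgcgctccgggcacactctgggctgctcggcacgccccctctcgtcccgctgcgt

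In windows of 300 bases, which run 50 bases past the start, Cdk2 held 1 E2F match, first base at -140, and 6 GC boxes. Cdk4 held 3 GC boxes and 4 E-boxes, and Cdk6, at its start inside the gene, held 1 E-box and 0 GC boxes. The E-box was added after the sequences had been seen. Among all 32851 windows of the table, 2.3% held an E2F match, 35.7% a GC box and 7.2% an E-box. Ccne1 held 4 GC boxes and both windows of Ccnd3 held 2, with 0 matches to E2F in either gene. The motif TTTGAA, known as CHR, had 0 matches in these 6 windows and was in 17.9% of all. A match is a run of letters and no binding was measured. Sites with other letters, or outside these windows, were not searched, so 0 matches does not show that a gene lacks such sites.

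The comparison asked how transcripts of these genes stood after 8 h of cisplatin. Cdk6 fell to 0.609 times its control level (95% interval 0.531 to 0.699), Ccne2 rose to 1.31 times (1.19 to 1.44) and Ccnd1 to 1.14 times (1.06 to 1.23). These are 2 members higher and 1 lower of 8 at an adjusted p under 0.05 (limma, Benjamini-Hochberg over all 17098 genes). Among all genes 19.3% were called, 11.6% as higher and 7.69% as lower, and with 8 members a count of 3 sets nothing apart from that background. No filter on dim genes was used, and the leading probe sets of all 8 members lay above background on every array. The other 5 members did not pass, and their log2 changes ran from -0.04 for Ccnd2 and Ccnd3 to 0.11 for Cdk4. The median log2 change of the 8 was 0.10, against 0.01 for all genes.

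**Figure D1:**
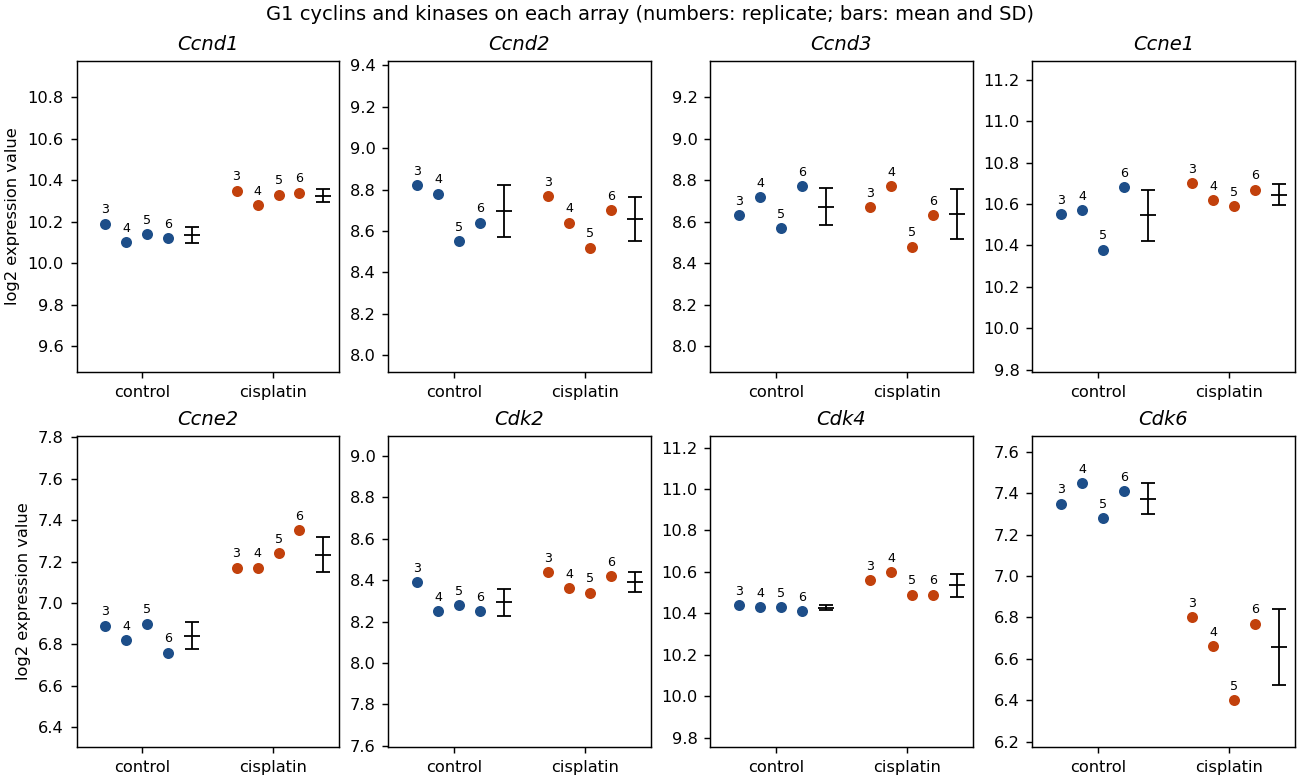
Log2 expression value (y axis, 1.5 log2 units in every panel) of the leading probe set of each member on each of the 4 control and 4 cisplatin arrays, with replicate numbers over the points and the mean and SD beside them. The groups lie apart for Cdk6, Ccne2, Ccnd1 and Cdk4 and overlap for the other members.

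Among the D-type cyclins, which sense growth signals, only Ccnd1 passed the test. Its log2 levels were 10.35, 10.28, 10.33 and 10.34 on cisplatin replicates 3 to 6 and 10.19, 10.10, 10.14 and 10.12 on the controls. Every cisplatin array lay above every control array, with 0.09 between the nearest. The log2 change was 0.19 ± 0.05 (SE, 4 arrays against 4; limma adjusted p = 0.0208). The 2 other probe sets of Ccnd1 gave larger changes, 0.27 ± 0.06 and 0.31 ± 0.06 (adjusted p = 0.0113 and 0.00643 over all probe sets), so all 3 passed in the same direction. The call of the leading probe set was lost when cisplatin replicate 3, cisplatin replicate 6 or control replicate 4 was left out (adjusted p = 0.0524, 0.0510 and 0.0593; 0.0310 to 0.0593 over the 8 arrays). It was also lost, at a change of 0.06 (adjusted p = 0.428), when each array was centred on its median. Centring lowers every change by 0.13 and takes the median change over all genes from 0.01 to -0.12. Small rises here and below lose size under it for that reason.

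Ccnd2, another cyclin that activates Cdk4 and Cdk6, was read by 6 probe sets and none passed. Its leading log2 levels were 8.77, 8.64, 8.52 and 8.70 with cisplatin and 8.82, 8.78, 8.55 and 8.64 in the controls. The groups overlapped, and in each the replicate numbered 5 was the lowest. The log2 change of -0.04 ± 0.08 has a 95% interval of -0.21 to 0.14, and the 6 probe sets ranged from -0.18 to 0.00. The dimmest probe set lay under the background value of 3.10 on 5 of 8 arrays, so it says little of the gene.

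Ccnd3, the third D-type cyclin, gave 8.67, 8.77, 8.48 and 8.63 with cisplatin and 8.63, 8.72, 8.57 and 8.77 in the controls. These values overlapped over nearly their whole range. The log2 change was -0.04 ± 0.07 with a 95% interval of -0.20 to 0.13 (limma adjusted p = 0.806), and the gene's other probe set lay under background on all 8 arrays. Without cisplatin replicate 5 the small changes of Ccnd2 and Ccnd3 turned to 0.01 and 0.02.

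The E-type cyclins activate Cdk2 at the entry into S phase. Ccne2 was at 7.17, 7.17, 7.24 and 7.35 on the cisplatin arrays and at 6.89, 6.82, 6.90 and 6.76 on the controls. The groups were 0.26 apart at their nearest, more than the SD of either group (0.09 and 0.07). The log2 change was 0.39 ± 0.06 (limma adjusted p = 0.00168), larger than the rise of all but 6.43% of genes. It passed under each of the 21 alternative settings, with changes from 0.26 to 0.41, and only 1 probe set reads the gene.

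Ccne1, its paralogue, was at 10.70, 10.62, 10.59 and 10.67 with cisplatin and at 10.55, 10.57, 10.38 and 10.68 in the controls. The highest control array lay among the cisplatin arrays. Its log2 change of 0.10 ± 0.07 did not pass (95% interval -0.05 to 0.25; limma adjusted p = 0.378), and centring turned it to -0.03.

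Cdk6, a partner of the D-type cyclins, gave the largest change among the members. Its leading log2 levels were 6.80, 6.66, 6.40 and 6.77 with cisplatin and 7.35, 7.45, 7.28 and 7.41 in the controls. All cisplatin arrays lay below all control arrays, with a gap of 0.48, and the lowest of them was replicate 5. The log2 change was -0.71 ± 0.09 (limma adjusted p = 4.38e-04), and 0.708% of all genes had a larger fall. It kept its call under all 21 alternatives, from -0.85 to -0.61, the first after centring.

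A second Cdk6 probe set gave 6.41, 6.61, 6.21 and 6.75 against 7.10, 7.39, 7.30 and 7.30, a change of -0.77 ± 0.11 (adjusted p = 0.00103 over all probe sets). This is close to the leading probe set in size and in the array that is lowest. The third, at 3.52 ± 0.19 (SD, n = 4) and 3.87 ± 0.21, is near background; it changed by -0.35 ± 0.12 and did not pass (adjusted p = 0.0708 over all probe sets). The 2 brighter probe sets carry the same source accession in the platform annotation, and the third another one.

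Cdk4, the other partner of the D-type cyclins, was at 10.56, 10.60, 10.49 and 10.49 with cisplatin and at 10.44, 10.43, 10.43 and 10.41 in the controls. The groups did not overlap, with 0.05 between them, yet the log2 change of 0.11 ± 0.05 did not pass (limma adjusted p = 0.164). Non-overlapping groups were found for 4 of the 8 members (Ccnd1, Ccne2, Cdk4 and Cdk6) and for 24.3% of all genes. The 2 other Cdk4 probe sets changed by 0.12 ± 0.06 and 0.10 ± 0.06 and did not pass either. With an intensity trend in the variance, with that trend and a robust fit, and with an ordinary t statistic the gene was called (adjusted p = 0.0312, 0.0341 and 0.0497). After centring its change was -0.02 (limma adjusted p = 0.810). With quantile normalization applied again it was 0.13 (limma adjusted p = 0.112), so centring turned its direction and the other rescaling did not.

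Cdk2, the partner of the E-type cyclins, was at 8.44, 8.36, 8.34 and 8.42 with cisplatin and at 8.39, 8.25, 8.28 and 8.25 in the controls. A single control array reached into the cisplatin range. The log2 change was 0.10 ± 0.05 (95% interval -0.02 to 0.22; limma adjusted p = 0.263), and -0.03 after centring.

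**Figure D2:**
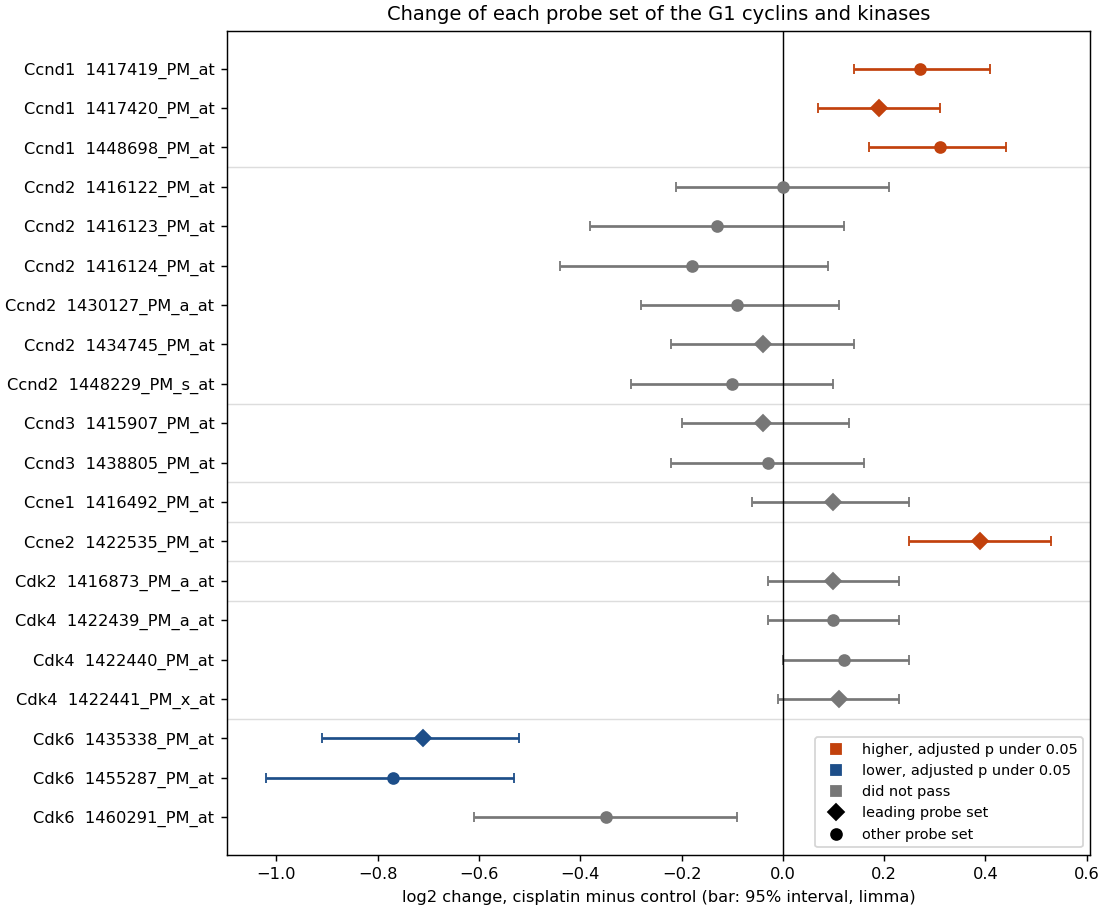
Log2 change, cisplatin minus control, of each of the 20 probe sets of the members (x axis; bars are 95% intervals from limma, diamonds the leading probe sets). All 3 probe sets of Ccnd1 and that of Ccne2 passed as higher, 2 of 3 for Cdk6 passed as lower, and the remaining 14 did not pass.

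Over the probe sets, 4 of 20 passed as higher and 2 as lower, where 16.3% of all 28898 single-gene probe sets passed, 8.60% as higher and 7.69% as lower. Whether related members changed by different amounts was asked within each array, from the log2 value of a gene minus that of its relative, for 7 pairs. With 4 arrays against 4 the two-sided exact permutation test cannot go below 0.0286. Levels of different probe sets are not comparable, so the change of each difference between the groups is given, not the difference itself.

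The log2 value of Cdk4 minus that of Cdk6 was higher with cisplatin by 0.82 ± 0.09 (SE; 95% interval 0.60 to 1.05), and that of Cdk2 minus Cdk6 by 0.81 ± 0.09 (0.59 to 1.04). For both pairs all 4 cisplatin arrays lay above all 4 controls (exact p = 0.0286, the smallest possible), but the exact test's adjusted p over the 7 pairs was 0.100. For Ccne2 minus Ccne1 the change was 0.29 ± 0.10 (0.04 to 0.54; exact p = 0.0571, adjusted p = 0.100). For Ccnd1 minus Ccnd2 it was 0.23 ± 0.08 (exact p = 0.0571, adjusted p = 0.100) and for Ccnd1 minus Ccnd3 0.23 ± 0.09 (exact p = 0.0857, adjusted p = 0.120). With this floor, a pair could pass after adjustment only if several more of the 7 pairs had also reached it. The adjusted values therefore do not show that these genes changed alike. For Ccnd2 against Ccnd3 and Cdk2 against Cdk4 the change was 0.00 and -0.01, with intervals of -0.21 to 0.20 and -0.12 to 0.10.

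**Figure D3:**
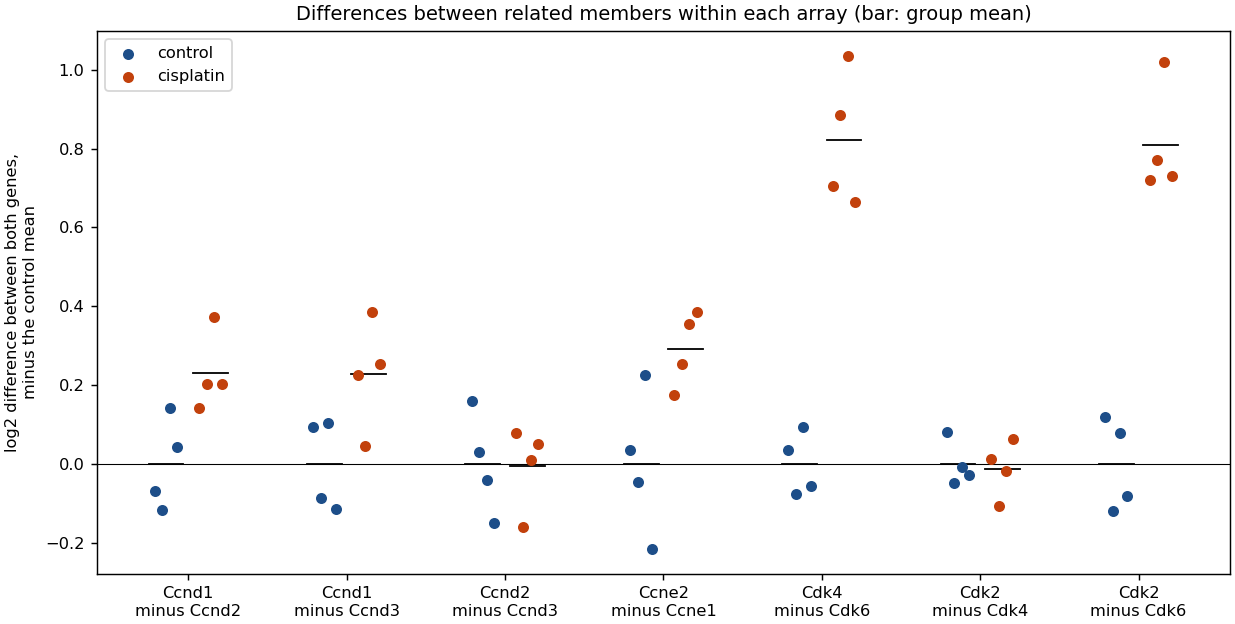
Log2 difference between related members within each array, less the mean of the 4 controls (y axis), for 7 pairs; points are arrays and bars group means. The Cdk4 and Cdk2 differences from Cdk6 are 0.82 and 0.81 higher with cisplatin, with no overlap, whereas the groups meet at their edge for Ccnd1 minus Ccnd2 and overlap for the 4 other pairs.

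The members differ in gene length: Cdk6 spans 190 kb in the reference annotation, Ccnd3 94.6 kb, Ccnd2 27.0 kb and the others 3.75 to 14.3 kb. Among genes over 100 kb, a class chosen after the values were seen, 26.9% were called lower and 3.58% higher, against 4.96% and 12.9% of shorter genes. A fall at least as large as that of Cdk6 was seen in 107 of 2124 longer genes, Cdk6 included, and in 15 of 14813 shorter ones. Ccnd3, the next in length, was among the members that did not pass. The part of gene length in the fall of Cdk6 was not tested.

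**Figure D4:**
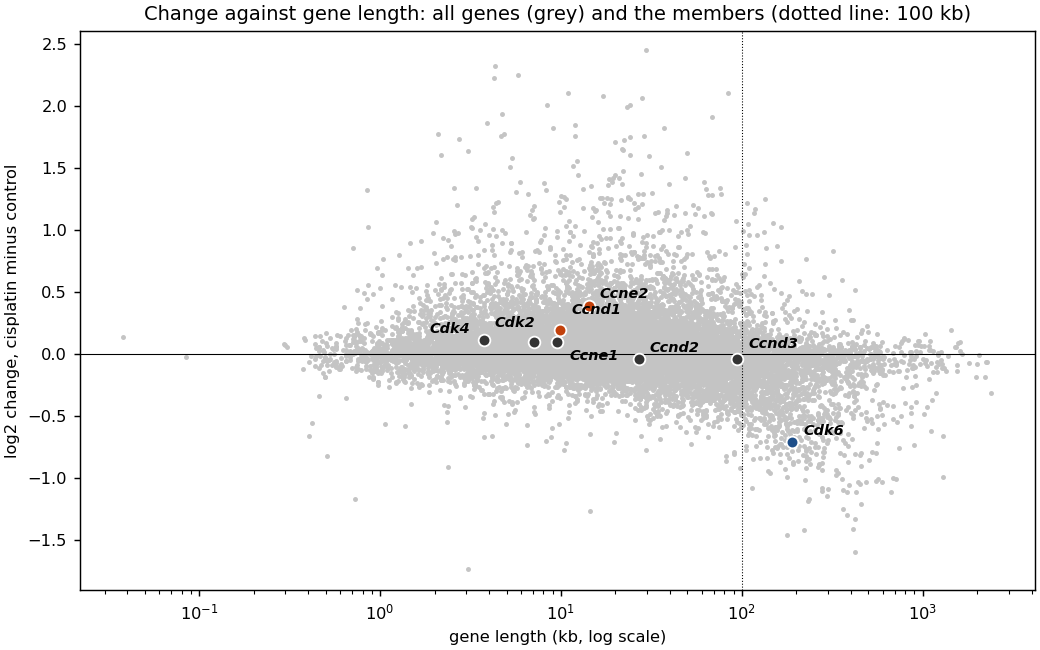
Log2 change, cisplatin minus control (y axis), against gene length in kb (x axis, log scale) for all genes with a length in grey and the 8 members as large points, orange where called higher, blue where called lower and dark where not called. Cdk6, at 190 kb and -0.71, lies past the 100 kb line, and the 7 other members lie to its left between -0.04 and 0.39.

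Genes with the profile most like that of a called member were sought among genes called in the same direction, by the mean absolute difference of log2 values centred on each gene's mean over the 8 arrays. For Cdk6 these were Mras, a relative of Ras, at 0.059 log2 units and Itga9, an integrin subunit, at 0.060, among 1280 candidates. Mras changed by -0.73 ± 0.11 and Itga9 by -0.71 ± 0.09, a likeness to Cdk6 that the way they were chosen fixes. For Ccne2 they were Prorsd1 at 0.025 and Myh7, a myosin heavy chain gene, at 0.035, among 1918 candidates. Prorsd1 rose by 0.36 ± 0.07 and Myh7, at 4.11 ± 0.06 (SD, n = 4) in the controls, by 0.45 ± 0.06. The call of Myh7 was lost with its most variable probe set and without probe sets that can match several transcripts (adjusted p = 0.118 and 0.119). For Ccnd1 they were Cyb5a, a cytochrome b5 gene, at 0.020 and Mrps16, a mitochondrial ribosome gene, at 0.021. Cyb5a rose by 0.20 ± 0.05 and Mrps16 by 0.16 ± 0.05, and the call of Mrps16 was lost without any 1 of the 8 arrays (adjusted p = 0.0632 to 0.0866). Centring each array on its median ended the calls of both Cyb5a and Mrps16 (limma adjusted p = 0.345 and 0.679).

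The largest changes of the same machinery lay outside the members. For the counts of this list and those below, the background is 11.6% of all genes called higher and 7.69% called lower. No list was tested against other genes. Of 7 inhibitors of the cyclin-dependent kinases, 2 were higher, 1 was lower and 4 did not pass, with a median of 0.18. Cdkn1a, which encodes p21, averaged 8.63 ± 0.23 (SD, n = 4) on cisplatin arrays and 7.41 ± 0.15 on control arrays, a rise of 1.22 ± 0.12. Cdkn2b, which encodes the Cdk4 and Cdk6 inhibitor p15, rose by 1.00 ± 0.18 (limma adjusted p = 0.00333), while Cdkn1b, which encodes p27, fell by 0.49 ± 0.10 on the log2 scale. Their calls stood with each array left out.

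Of 13 pocket protein and E2F genes, 4 were higher, 2 lower and 7 did not pass, with a median of -0.10. The pocket protein genes Rbl2 and Rb1, which bind E2F factors, rose by 1.20 ± 0.06 and 0.98 ± 0.12, and the repressor genes E2f7 and E2f6 by 0.28 ± 0.05 and 0.27 ± 0.08. The pocket protein gene Rbl1, at -0.13 ± 0.06, and the repressor gene E2f8, at -0.10 ± 0.07, did not pass. E2f3, an activator, fell by 0.37 ± 0.08 and the dimerisation partner gene Tfdp2 by 0.34 ± 0.08 on the log2 scale. The call of E2f7 was lost after centring (adjusted p = 0.0596). That of E2f6 was lost after centring (adjusted p = 0.172), with an ordinary t statistic (adjusted p = 0.0705), over the mean of its probe sets (0.07, adjusted p = 0.564) and on leaving out replicates 5 or 6 of cisplatin (adjusted p = 0.0844 and 0.0846) or 4 or 6 of the controls (0.0864 and 0.0785).

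Among 7 genes that activate or phosphorylate cyclin-dependent kinases, Mnat1, an assembly factor of the activating kinase, fell by 0.26 ± 0.06 on the log2 scale and was alone in passing. The phosphatase gene Cdc25c was at -0.19 ± 0.06 (limma adjusted p = 0.0647) and passed without cisplatin replicate 3 (adjusted p = 0.0278) and without genes under background (adjusted p = 0.0416). After centring it was at -0.32 (adjusted p = 0.00905). The list median was -0.08.

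Of 14 genes that control the turnover of G1 cyclins, 2 were higher, 7 lower and 5 did not pass, with a median of -0.11. Fbxw7, the subunit that targets cyclin E for destruction, averaged 8.65 ± 0.09 (SD, n = 4) on cisplatin arrays and 7.90 ± 0.11 on control arrays, a rise of 0.75 ± 0.07 (limma adjusted p = 9.82e-05). Usp2, a deubiquitinase that acts on cyclin D1, rose by 0.83 ± 0.07 (adjusted p = 5.70e-05). The 7 lower genes changed by -0.20 to -0.71; Ambra1, which directs the destruction of D-type cyclins, had the largest fall of them (named after its value was seen). Ambra1 spans 189 kb, near the length of Cdk6. Among all genes 7.69% were called lower, and the list was not tested against other genes.

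Genes downstream of the members were called no more often than all genes. Of 26 measured G1/S target genes of E2F, 3 were higher, 1 lower and 22 did not pass, with a median of 0.04. Rrm2, a ribonucleotide reductase subunit, rose by 0.26 ± 0.06, the primase gene Prim1 by 0.23 ± 0.06 and the flap nuclease gene Fen1 by 0.19 ± 0.05, while Pola1, a replicative polymerase gene, had a log2 fall (change of -0.44 ± 0.07). The shares called, 11.5% higher and 3.85% lower, lie near or under the 11.6% and 7.69% of all genes. After centring, Rrm2, Prim1 and Fen1 were no longer called (adjusted p = 0.113, 0.270 and 0.480), nor were Rrm2 and Fen1 with their most variable probe sets (adjusted p = 0.0565 and 0.0630). Leaving out replicate 6 of cisplatin, or 4 or 5 of the controls, also ended the call of Prim1 (highest adjusted p = 0.0560), and that of Fen1 was lost without any array but cisplatin replicate 4 and control replicate 6 (highest 0.0925).

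Of the cyclins that act after G1, Ccna2 fell by 0.20 ± 0.05 and their kinase gene Cdk1 by 0.20 ± 0.05 on the log2 scale. These were the only 2 of 6 to pass, with none higher and a median of -0.07. The 6 include Ccna1 and Ccnb3, which lay under background in both groups, and Ccnb1 was not measured. Ccnb2, at -0.14 ± 0.06 (limma adjusted p = 0.108), and Ccnf, at 0.06 ± 0.06, did not pass. The call of Ccna2 ended on leaving out replicates 3 or 5 of cisplatin or 3 or 4 of the controls (highest adjusted p = 0.0646), and that of Cdk1 on leaving out 5 of cisplatin or 4 of the controls (highest 0.0627). Among 15 other cyclins 2 were higher and 2 lower, with a median of 0.07: Ccng1, which encodes cyclin G1, rose by 1.12 ± 0.10 and Ccnt1, a partner of Cdk9, by 0.22 ± 0.05, while Ccny and Ccnk fell by 0.38 ± 0.06 and 0.28 ± 0.07 on the log2 scale. The call of Ccnt1 was lost after centring, with another choice of probe set and without control replicate 3 (adjusted p = 0.271, 0.765 and 0.0532). That of Ccnk ended on leaving out replicates 4 or 6 of cisplatin or 5 or 6 of the controls (highest 0.0597) and with an ordinary t statistic (0.0509).

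Among 13 other cyclin-dependent kinases 1 was higher and 3 lower, with a median of -0.05. Cdk17 fell by 0.42 ± 0.08, Cdk19 by 0.36 ± 0.09 and Cdk8 by 0.25 ± 0.06 on the log2 scale, and Cdk9, a kinase of transcription elongation, rose by 0.25 ± 0.07. The call of Cdk9 was lost with a term for the replicate number (adjusted p = 0.0538), after centring (adjusted p = 0.252), over other probe set choices and without any array but control replicate 6 (highest 0.0880). Cdk19 lost its call with its most variable probe set (-0.34, adjusted p = 0.0618). Unmoderated variances ended the calls of both Cdk19 and Cdk9 (adjusted p = 0.0544 and 0.0629). The -0.71 of Cdk6 was larger in size than the change of each of these 13 kinases.

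**Figure D5:**
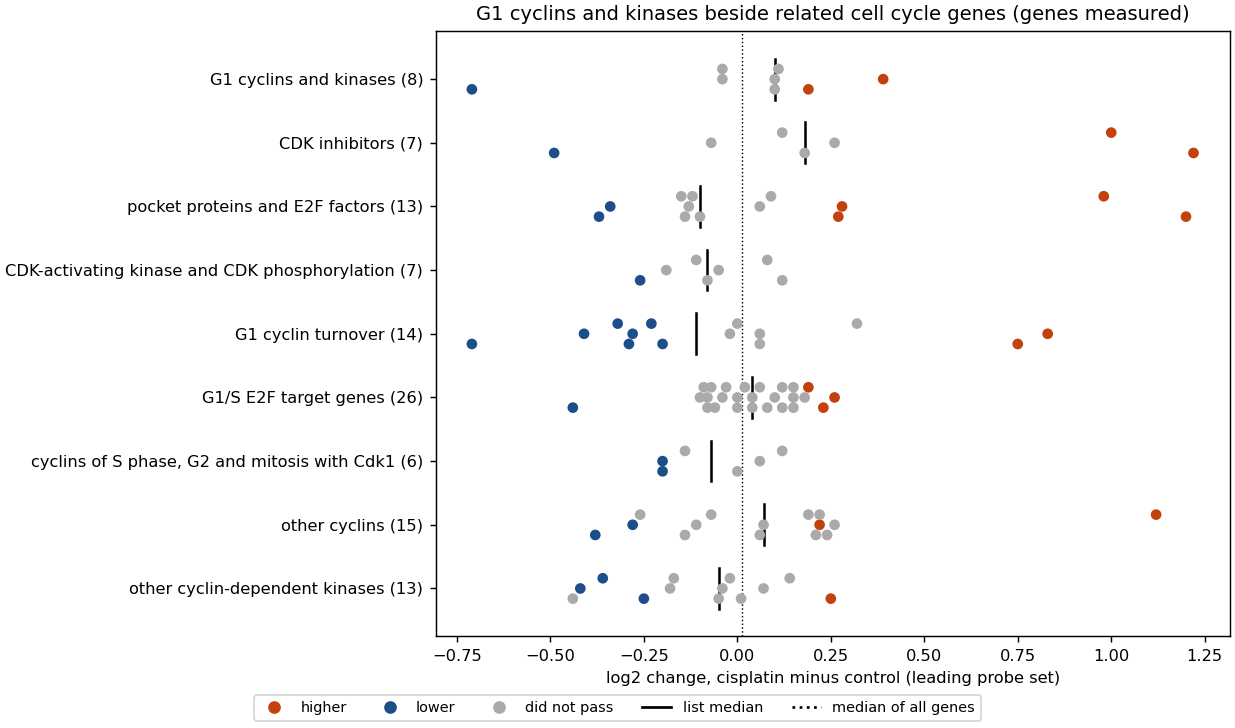
Log2 change, cisplatin minus control (x axis), of the 8 members and of the measured genes of 8 related lists (rows, with the number of genes); points are genes, orange higher, blue lower and grey not passed, solid bars list medians and the dotted line the median of all genes. The members span -0.71 to 0.39, and the largest rises, over 0.9, lie among the inhibitors, the pocket proteins and the other cyclins.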

How the data were processed

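The series' value table was used, with 1 column of log2 values per array and 45141 probe sets. The authors' deposited log2 values came from RMA, per the submitters' processing notes, which also name limma, with no versions. Since this step sets the arrays to a common scale, a shift in the RNA content of cells cannot appear in the values. Genes were named through the platform annotation and a RefSeq table (16937 of 17098 genes matched); 551 probe sets with several genes and 15588 with none listed were left out. The groups were compared with lmFit and eBayes of limma 3.58.1 in R 4.3.3, with group as the only term. Benjamini-Hochberg adjustment ran over the 17098 leading probe sets, or over 28898 for probe set results, at 0.05. No dim genes were left out. The median SE was 0.08 (log2). Background was read from control probes with 24 G or C of 25 bases.

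Named genes were the members, the 2 smallest p-values of each of 8 lists, all calls where 5 or fewer went in a direction, and the 2 nearest profiles per called member, skipping predicted genes and clones. Intervals of pair differences use the SD pooled over both groups. Alternatives changed the probe set choice, scaling, variance model, threshold, dim-gene filter and replicate block, or left out 1 array. Members and lists were chosen with earlier results of these data known. Figures used matplotlib 3.10.9 in Python 3.11.15.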

Additional observations from a re-analysis of the deposited data

Results flagged for a closer look

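In the cisplatin group 3 of the 6 Ccnd2 probe sets had replicate 5 far below the other arrays, with a gap that took up more of the group's range than Dixon's 95% critical value allows. The first read 5.68 there, with the nearest array at 6.07. The second read 7.94, with the nearest at 8.28, and the third 7.35, with the nearest at 7.65. The 3 probe sets read the same RNA on the same array, so they are not independent, and none of them leads the gene. In 40 groups examined, chance gives about 1 in 20, so 3 flagged values are near the number that chance gives. On the leading probe set replicate 5 was also the lowest, at 8.52, within the range this criterion allows.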

How the results depend on the processing

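Under 21 alternative settings, Cdk6 and Ccne2 kept their direction and their call in each, and Ccnd1 its direction in each and its call in 16. The count of members called was 3 in the report. It fell to 2 after centring and at a threshold of 0.01, with 1 higher and 1 lower, and rose to 4, with 3 higher, with an intensity trend, with that trend and a robust fit, and with an ordinary t statistic. With each array left out it was 2 to 3, with 1 to 2 higher and 1 lower. Over all genes 3303 were called (1989 higher, 1314 lower), 5012 after centring (1087 and 3925) and 1855 at 0.01 (1113 and 742). With every probe set as its own feature 2222 were lower. With each array left out 2617 to 3042 genes were called, 1580 to 1871 higher and 1037 to 1246 lower. Centring took the median over all genes from 0.01 to -0.12 and turned Ccne1, Cdk2 and Cdk4 to -0.03, -0.03 and -0.02. With each array left out, Ccnd2 ranged from -0.09 to 0.01 and Ccnd3 from -0.08 to 0.02, both above 0 without cisplatin replicate 5. Likewise Ccnd2 minus Ccnd3 ranged from -0.05 to 0.05 (0.05, 0.05 and 0.01 without cisplatin replicate 4, control replicate 3 and control replicate 4), and Cdk2 minus Cdk4 from -0.04 to 0.02 (0.02 without cisplatin replicate 4 and without control replicate 3). The cause was not tested. The replicate number as a block gave 3447 calls, 3 of them members. Same-numbered arrays correlated at 0.065 to 0.200 in their deviations from the group means, all above 0, and 7 of 8 arrays did so best with their own number, a hint of pairing from the data and not from the design. Control replicate 6 did so best with cisplatin replicate 3 (0.106), and 1 of the 4 same-numbered values was low, at 0.065, so the groups were compared without pairing. The 2 filters on dim genes, of which the higher, at 3.10, was added after seeing the data, left the members' calls in place. With 4 arrays per group, changes of 0.10 such as those of Ccne1 and Cdk2 cannot be told from 0.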
